A study of Mus musculus with 9 samples.

Results

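Interferon-stimulated genes were followed in HC11-ΔSAP, HC11-mutB1 and HC11-FL cells, 3 strains of a mouse mammary epithelial line that overexpress variants of the transcriptional coactivator Mkl1. A list of 41 genes with a known response to interferon was used, and a gene counted as measured where a probeset was annotated to its symbol and to no other. Of the 41 genes, 38 had such a probeset, out of 19937 genes on the array that did. Isg15 and Gbp2 had only probesets shared with other genes and Ifi44 was not listed, so no values are given for these. Where a gene had several own probesets, as Ifitm1, Ifitm2, Irf1 and Rnf213 did, the one with the highest mean over the 9 arrays stood for it. HC11 cells come from the mammary epithelium of mid-pregnancy BALB/c mice. HC11-ΔSAP cells express Mkl1 without its SAP domain, a DNA-binding fold. HC11-mutB1 cells express Mkl1 with alanine substitutions in the B1 domain, through which Mkl1 binds serum response factor (SRF). HC11-FL cells express full-length Mkl1 and served as the control of both mutants. All 3 proteins carried red fluorescent protein at the C-terminus, and each stable strain was selected with Geneticin and sorted by fluorescence. Every culture was starved for 48 h in RPMI with 0.03% fetal calf serum and no epidermal growth factor before RNA was taken, and 3 arrays were hybridized per strain. Each construct is thus represented by 1 sorted strain, and a difference between constructs and a difference between strains cannot be told apart. No strain without an Mkl1 construct was analysed here, so all differences are relative to cells that overexpress full-length Mkl1 or to the other mutant.

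Type I interferons bind a receptor made of Ifnar1 and Ifnar2, whose kinases phosphorylate Stat2. Stat2 and Irf9 are subunits of the complex ISGF3, which binds the interferon-stimulated response element (ISRE) in the promoters of interferon-stimulated genes. The products include sensors of viral RNA and DNA, proteins that block viral entry, translation or release, and the factors Stat2, Irf9 and Irf7 themselves, so that the pathway raises its own components. Many of these genes are also expressed at a lower level in epithelial cells that have met no virus.

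The letters of the response element were looked for in the RefSeq promoter windows of the members (build GRCm38.p6, 250 bases before to 50 bases after a start, position 1 being the first transcribed base). The core searched was GAAANNGAAA on either strand, which reads TTTCNNTTTC on the other. At least 1 window was available for 32 of the 41 members, with 38 windows in all, and 15 of these windows (39.5%) held the core, against 3.44% of all 32851 windows. The sequences below are those of members that hold the core and were called in a mutant against HC11-FL. They are shown 5′ to 3′ on the strand of the gene with the core in capitals and 25 bases to either side, cut at the start, or as at most 30 bases where the core lies after the start. The first group was lower in HC11-mutB1 cells than in HC11-FL cells, as were Ifit2, Oasl2, Irf7 and Irf9, whose windows held no core.
Ifit1: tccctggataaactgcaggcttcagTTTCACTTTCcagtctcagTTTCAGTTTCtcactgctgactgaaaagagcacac
Bst2: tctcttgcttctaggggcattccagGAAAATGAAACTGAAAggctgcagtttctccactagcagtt
Stat2: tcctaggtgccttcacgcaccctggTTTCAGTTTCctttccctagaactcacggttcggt
Oas3: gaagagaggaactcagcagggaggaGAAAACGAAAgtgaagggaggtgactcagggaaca
Gbp3: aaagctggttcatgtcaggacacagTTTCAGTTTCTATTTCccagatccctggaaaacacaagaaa
Ifih1: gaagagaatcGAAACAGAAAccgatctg
The Ifit1 stretch lies at chr19:34640760-34640838 (+ strand), Bst2 at chr8:71537562-71537627 (- strand) and Stat2 at chr10:128270251-128270310 (+ strand). Oas3 lies at chr5:120777700-120777759 (- strand), Gbp3 at chr3:142559974-142560039 (+ strand) and Ifih1 at chr2:62646206-62646233 (- strand). Ifit1 holds 2 separate cores, whose first bases are at positions -104 and -85. Bst2 and Gbp3 each hold 2 cores that overlap in 4 bases. The Ifih1 core begins after the start, at position 33.

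The members below also hold the core, and were higher in HC11-ΔSAP than in HC11-FL cells while their change in HC11-mutB1 cells did not pass the test. They are shown because the same letters stand beside another pattern of values.
Ifitm3: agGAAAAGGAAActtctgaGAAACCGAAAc
Ifitm2: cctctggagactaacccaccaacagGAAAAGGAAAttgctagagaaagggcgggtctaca
Ddx58: agTTTCGATTTCctatggccag
Ifitm3 lies at chr7:141010715-141010744 and Ifitm2 at chr7:140955973-140956032, both on the - strand, and Ddx58 at chr4:40239804-40239825 (- strand). The gamma-activated site, an element of genes that respond to interferon gamma, was searched as TTCNNNGAA and was in 21.1% of the members' windows and 8.3% of all windows. The CArG box, to which SRF binds, was in 0 of the 38 member windows and 1.63% of all windows, which says only that these letters are not in this stretch.

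The values are the deposited log2 signals of 34760 probesets. Array medians lay between 4.53 and 4.60, and arrays correlated at 0.9938 to 0.9954 within a strain and at 0.9854 to 0.9889 between strains, over all probesets. The probeset of Mkl1, listed under its present symbol Mrtfa, read 9.41 to 9.55 in HC11-ΔSAP, 9.76 to 9.90 in HC11-mutB1 and 9.86 to 10.08 in HC11-FL arrays, and cannot tell a construct from the endogenous transcript. Of 10 mammary epithelial markers, 8 were at a mean of 4 or more in every strain, 4 being the minimum mean level in the study's filters for differential expression. Markers of T, B and natural killer cells were at that level for 2 of 8 genes. Identical values in 2 or more arrays of 1 strain occurred in 31.0% of probesets, and among the members in Oas2, Gbp3, Bst2, Dtx3l and Ifih1. Since the labels do not say that the arrays of a strain come from separate cultures, p-values measure only the spread between these arrays. All tests are limma's moderated tests with Benjamini-Hochberg adjustment over all probesets, and a gene was called at an adjusted p of at most 0.01. An exact permutation test of 3 arrays against 3 cannot go below p = 0.1, so none is given for single genes. The comparisons of both mutants use the same 3 HC11-FL arrays.

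In HC11-mutB1 cells more interferon-stimulated genes were called lower than higher against the HC11-FL control, and most were not called. Of the 38 members 12 fell (31.6%, against 7.21% of all genes) and 4 rose (10.5%, against 10.5% of all genes), while 22 did not pass the test. The members that fell were Ifit1, Bst2, Stat2, Ifih1, Oas3, Gbp3, Oasl2, Irf9, Irf7, Ifit2, Rtp4 and Zbp1, and those that rose were Xaf1, Rnf213, Dtx3l and Isg20. The median log2 fold change over the 38 members was -0.25, against -0.02 over all genes. Fitted over probesets with a mean of at least 4, 14 of 33 members fell, against 12.6% of 13157 genes, and 5 rose, against 18.1%. The study's own filters add a 2-fold minimum and a mean of 4 or more to that adjusted p, and these 3 were passed downward by 3 members (7.89%, background 1.1%) and upward by 2 (5.26%, background 1.46%). The number of lower members depended on single arrays. It was 6 without HC11-FL replicate 1, 6 without HC11-FL replicate 3, 7 without HC11-mutB1 replicate 1 and 6 without HC11-mutB1 replicate 2, when 4.98% to 5.81% of all genes were called lower. Gbp3, Irf7, Irf9, Oasl2, Rtp4 and Zbp1 lost their call without at least 1 array, and the 6 others kept it without any one of the 9. Upward, 1 member in place of 2 passed the 3 filters without HC11-FL replicate 2 or HC11-mutB1 replicate 3. In a whole culture, fewer cells that express a gene and less RNA of it per cell cannot be told apart.

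**Figure D1:**
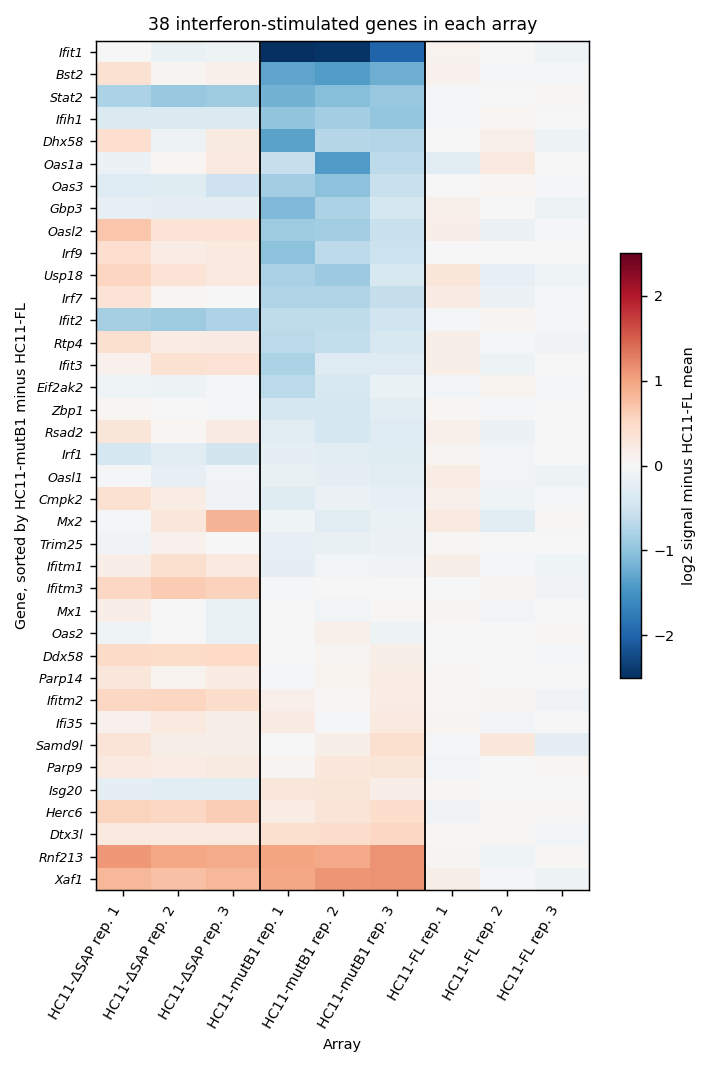
Heat map of 38 interferon-stimulated genes (rows, sorted by the difference HC11-mutB1 minus HC11-FL) in the 9 arrays (columns, HC11-ΔSAP, HC11-mutB1 and HC11-FL). Colour gives the log2 signal minus the mean of the 3 HC11-FL arrays. The upper rows are blue in HC11-mutB1 arrays alone for Ifit1 and Bst2 and in both mutants for Stat2 and Ifit2, and Rnf213 and Xaf1 at the bottom are red in both mutants.

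In HC11-ΔSAP cells the members moved in both directions. Relative to HC11-FL cells 7 rose (18.4%, against 10.8% of all genes) and 5 fell (13.2%, against 8.09% of all genes). Those that rose were Rnf213, Xaf1, Ifitm3, Herc6, Ifitm2, Ddx58 and Dtx3l. Those that fell were Stat2, Ifit2, Irf1, Ifih1 and Isg20. The median over the 38 members was 0.18, against 0.00 over all genes. Fitted over probesets with a mean of at least 4, 7 of 33 members rose, against 17.9% of 13157 genes, and 5 fell, against 13.9%. At that level both counts are near the background. Past the 3 filters together were 0 members in either direction (background 1.36% lower and 1.36% higher), and none had an unadjusted p under 0.05 with that fold and level, while 1 passed upward without HC11-FL replicate 1 or 3 or HC11-ΔSAP replicate 2 or 3. The largest change was that of Rnf213, at 0.99 on the log2 scale, just under the 2-fold mark. The lower members numbered 3 without HC11-FL replicate 1 or 3 or without HC11-ΔSAP replicate 1 or 3, when 5.67% to 6.75% of all genes were called lower.

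Set directly against HC11-mutB1 cells, HC11-ΔSAP cells had 15 members higher (39.5%, against 6.63% of all genes) and 1 lower, Isg20 (2.63%, against 7.11%). The median difference over the 38 members was 0.38, against 0.02 over all genes. Fitted over probesets with a mean of at least 4, 14 of 33 members were higher, against 11.7% of 13157 genes, and 1 was lower, against 12.4%. Ifit1, Bst2, Oasl2, Dhx58, Usp18 and Irf9 passed the 3 filters (6 members or 15.8%, background 1.06%), and 0 passed them downward (background 1.5%), also at an unadjusted p under 0.05. The count of higher members was 9 without HC11-mutB1 replicate 1 (4.64% of all genes), 8 without HC11-mutB1 replicate 2 (4.48%) and 9 without HC11-ΔSAP replicate 1 (5.2%). The 6 past the 3 filters were 3 without HC11-mutB1 replicate 1 or HC11-ΔSAP replicate 1. In 8 of the 15 the call held whichever of the 9 arrays was left out. The 7 others were Dhx58, Ifit3, Ifitm2, Irf7, Rsad2, Usp18 and Zbp1.

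**Figure D2:**
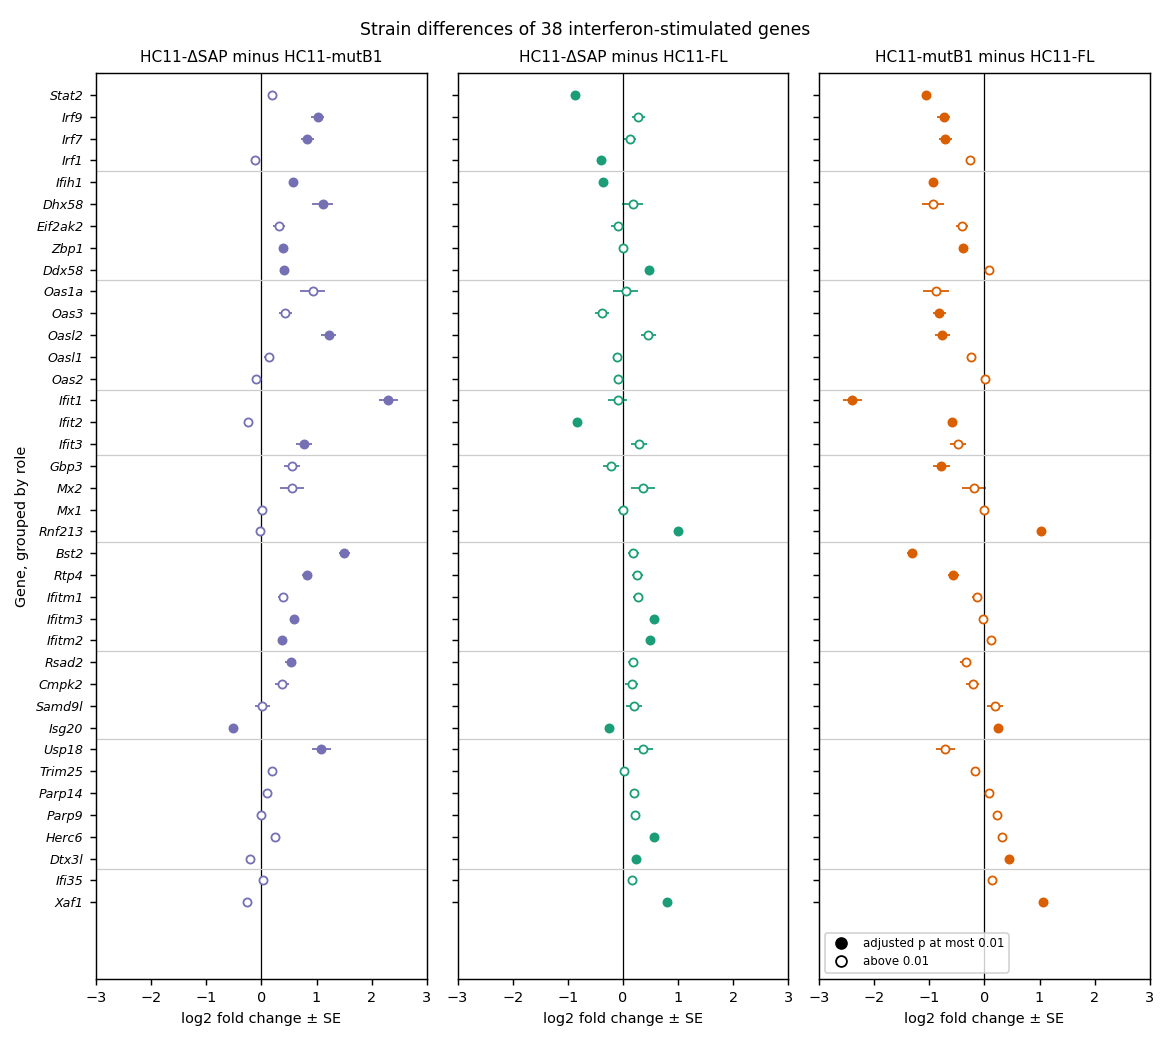
log2 fold change ± SE from the limma fit (horizontal axis) of the 38 members (rows, grouped by role) in HC11-ΔSAP minus HC11-mutB1 (left), HC11-ΔSAP minus HC11-FL (middle) and HC11-mutB1 minus HC11-FL (right). Filled symbols had an adjusted p of at most 0.01, and the filled symbols lie mostly below 0 on the right (12 of 16) and above 0 on the left (15 of 16).

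Of the 4 transcription factors in the list, 3 fell in HC11-mutB1 (background 7.21%) and 2 fell in HC11-ΔSAP cells (background 8.09%). Such backgrounds, here and for the lists that follow, cover all 19937 genes, including those below a mean of 4. In the fits at a mean of at least 4 the shares were larger. There 12.6% fell and 18.1% rose in HC11-mutB1, and 13.9% fell and 17.9% rose in HC11-ΔSAP. All 4 factors were at that level, as were the sensors, the ubiquitin-related genes and the receptors below. Stat2, the transactivating subunit of ISGF3, read 8.42, 8.26 and 8.33 in HC11-ΔSAP, 8.02, 8.15 and 8.27 in HC11-mutB1 and 9.16, 9.23 and 9.25 in HC11-FL arrays. Both mutants lay wholly below HC11-FL and overlapped each other. Its log2 signal fell by 1.07 in HC11-mutB1 (SE 0.072, adjusted p = 2.8e-05) and by 0.87 in HC11-ΔSAP (SE 0.072, adjusted p = 7.6e-05). The direct difference of the mutants was 0.19, with a 95% interval of 0.03 to 0.36 and an adjusted p of 0.14. Irf9, the subunit of ISGF3 that recognizes the response element, read 7.63, 7.40 and 7.47 in HC11-ΔSAP, 6.19, 6.56 and 6.69 in HC11-mutB1 and 7.23, 7.20 and 7.22 in HC11-FL arrays. It was lowest in all 3 HC11-mutB1 arrays, with a fall of 0.74 against HC11-FL (SE 0.12, adjusted p = 0.0035) and a difference of 1.02 between HC11-ΔSAP and HC11-mutB1 (adjusted p = 7.6e-04). Irf9 in HC11-ΔSAP did not differ from HC11-FL past the test (0.28, adjusted p = 0.18).

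Irf7, which amplifies the production of type I interferon, followed Irf9. Its signals were 7.16, 6.87 and 6.80 in HC11-ΔSAP, 6.06, 6.06 and 6.22 in HC11-mutB1 and 7.02, 6.68 and 6.77 in HC11-FL arrays. HC11-ΔSAP and HC11-FL arrays overlapped, and HC11-mutB1 arrays lay below both. The change was -0.71 in HC11-mutB1 (SE 0.12, adjusted p = 0.0037) and 0.13 in HC11-ΔSAP cells (adjusted p = 0.59). Irf1, a factor induced mainly by interferon gamma, read 8.09, 8.25 and 8.07 in HC11-ΔSAP, 8.27, 8.26 and 8.23 in HC11-mutB1 and 8.60, 8.46 and 8.52 in HC11-FL arrays. Both mutants were below HC11-FL in every array, and the fall passed the test in HC11-ΔSAP (-0.39, SE 0.063, adjusted p = 0.0029) but not in HC11-mutB1 (-0.27, adjusted p = 0.019). The mutants overlapped in Irf1. A second own probeset of Irf1 was near background, with means of 4.36 in HC11-ΔSAP, 4.36 in HC11-mutB1 and 4.32 in HC11-FL. Single arrays decided several of these calls. The fall of Irf9 in HC11-mutB1 was not called without any 1 of the 3 HC11-FL arrays or HC11-mutB1 replicate 2. That of Irf7 was not called without HC11-FL replicate 1 or 3 or HC11-mutB1 replicate 1 or 2, and that of Irf1 in HC11-ΔSAP not without HC11-FL replicate 1 or 3 or HC11-ΔSAP replicate 1 or 3.

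Of the 5 sensors of viral nucleic acid 2 fell and 0 rose in HC11-mutB1 (background 7.21% and 10.5%), and 1 fell and 1 rose in HC11-ΔSAP (background 8.09% and 10.8%). Ifih1 (MDA5), a sensor of long double-stranded RNA, read 6.89 in each of the 3 HC11-ΔSAP arrays, 6.26, 6.40 and 6.28 in HC11-mutB1 and 7.21, 7.30 and 7.24 in HC11-FL arrays. The 3 strains did not overlap, and the 3 equal HC11-ΔSAP values are 1 of the repeated values named above. Ifih1 fell by 0.93 in HC11-mutB1 (SE 0.051, adjusted p = 8.2e-06) and by 0.36 in HC11-ΔSAP (adjusted p = 0.0014), and in HC11-ΔSAP was 0.58 above HC11-mutB1 (adjusted p = 1.4e-04). Ddx58 (RIG-I), the related sensor of RNA with a triphosphate end, differed from HC11-FL by 0.08 in HC11-mutB1 (adjusted p = 0.33) and rose in HC11-ΔSAP by 0.48 (SE 0.046, adjusted p = 1.7e-04). Its HC11-ΔSAP arrays read 10.33, 10.32 and 10.36, its HC11-mutB1 arrays 9.87, 9.93 and 10.00 and its HC11-FL arrays 9.87, 9.87 and 9.83. All 3 HC11-ΔSAP arrays were above the other 6.

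Dhx58 (LGP2), which modulates signalling by these sensors, read 5.94, 5.40 and 5.75 in HC11-ΔSAP, 4.18, 4.81 and 4.78 in HC11-mutB1 and 5.51, 5.66 and 5.40 in HC11-FL arrays. HC11-mutB1 was below both other strains, with a difference of 1.11 between HC11-ΔSAP and HC11-mutB1 (SE 0.19, adjusted p = 0.0058). Against HC11-FL its change of -0.93 narrowly missed the threshold (adjusted p = 0.011). Zbp1, a sensor of Z-form nucleic acid, fell by 0.38 in HC11-mutB1 (adjusted p = 0.0027) and differed by 0.00 in HC11-ΔSAP (95% interval -0.14 to 0.14). Eif2ak2 (PKR), the kinase that halts translation on double-stranded RNA, read 8.36, 8.33 and 8.41 in HC11-ΔSAP, 7.79, 8.07 and 8.30 in HC11-mutB1 and 8.40, 8.55 and 8.43 in HC11-FL arrays, and passed the test in no comparison (adjusted p of 0.043 to 0.70).

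The largest change of any member was in an IFIT gene. Ifit1, whose product binds viral RNA that lacks cap methylation, read 8.23, 8.08 and 8.12 in HC11-ΔSAP, 5.48, 5.79 and 6.24 in HC11-mutB1 and 8.33, 8.25 and 8.13 in HC11-FL arrays. It fell by 2.40 in HC11-mutB1 (SE 0.17, adjusted p = 3.6e-05), which is 5.27-fold, and in HC11-ΔSAP was 2.30 above HC11-mutB1 (adjusted p = 5.1e-05). In HC11-ΔSAP the difference from HC11-FL was -0.10, with a 95% interval of -0.49 to 0.29 (adjusted p = 0.79). Ifit2, a paralog that lies on the same chromosome, fell in both mutants. Its signals were 7.97, 7.92 and 8.03 in HC11-ΔSAP, 8.18, 8.16 and 8.31 in HC11-mutB1 and 8.77, 8.88 and 8.77 in HC11-FL arrays, and all HC11-ΔSAP arrays were below the other 6, although the direct difference of -0.25 between HC11-ΔSAP and HC11-mutB1 did not pass (adjusted p = 0.027). The change was -0.84 in HC11-ΔSAP (SE 0.060, adjusted p = 3.8e-05) and -0.59 in HC11-mutB1 (adjusted p = 2.6e-04). Ifit3, close to the level of 4 in all strains, read 4.42, 4.68 and 4.67 in HC11-ΔSAP, 3.50, 3.97 and 3.98 in HC11-mutB1 and 4.45, 4.17 and 4.28 in HC11-FL arrays. Its call of 0.77 between HC11-ΔSAP and HC11-mutB1 (adjusted p = 0.0079) was lost whichever array was left out.

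**Figure D3:**
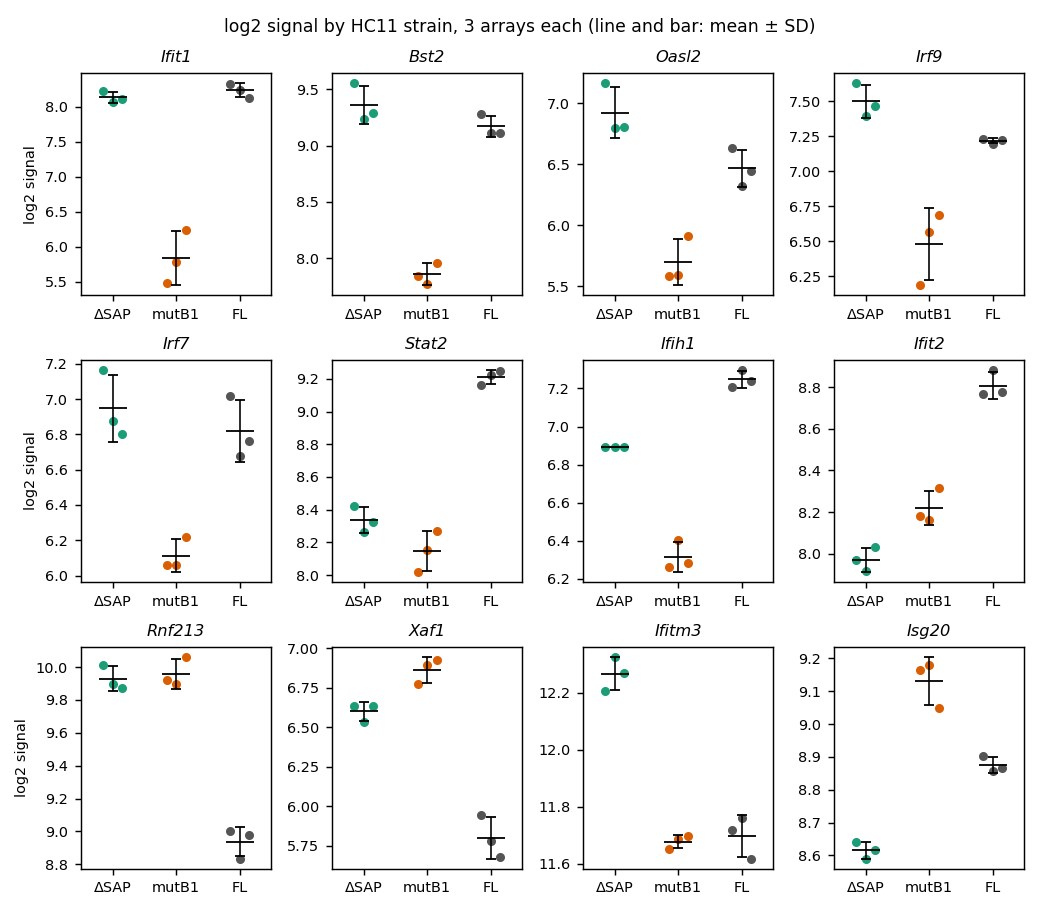
log2 signal (vertical axis, a separate scale for each gene) of 12 members in the 3 arrays of HC11-ΔSAP, HC11-mutB1 and HC11-FL cells (points), with the mean and SD (line and bar). Ifit1, Bst2, Oasl2, Irf9 and Irf7 are low in HC11-mutB1 alone, Stat2 and Ifit2 are low in both mutants, Rnf213 and Xaf1 are high in both, and Ifitm3 is high in HC11-ΔSAP.

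Of the 2-5A synthetase family, whose active members make the messenger that switches on RNase L, 2 of 5 fell in HC11-mutB1 (background 7.21%) and 0 were called in HC11-ΔSAP against HC11-FL (background 8.09% lower and 10.8% higher). At an unadjusted p under 0.05 in limma, Oas3 was lower and Oasl2 higher in that comparison. Oasl2, a family member that is also ubiquitin-like, read 7.17, 6.80 and 6.81 in HC11-ΔSAP, 5.59, 5.59 and 5.91 in HC11-mutB1 and 6.63, 6.33 and 6.44 in HC11-FL arrays. The 3 strains did not overlap, HC11-ΔSAP being highest and HC11-mutB1 lowest. Oasl2 fell by 0.77 in HC11-mutB1 (SE 0.14, adjusted p = 0.0050) and in HC11-ΔSAP was 1.23 above HC11-mutB1 (adjusted p = 5.0e-04), while its 0.46 over HC11-FL in HC11-ΔSAP missed the threshold (adjusted p = 0.052). Oas3 read 4.68, 4.71 and 4.49 in HC11-ΔSAP, 4.14, 3.98 and 4.46 in HC11-mutB1 and 5.01, 5.07 and 4.95 in HC11-FL arrays. It fell by 0.82 in HC11-mutB1 (SE 0.12, adjusted p = 0.0019). Oas1a had a change of nearly the same size, -0.88, but 1 HC11-mutB1 array at 4.28 stood apart from the others at 5.12 and 5.03, and the adjusted p was 0.033. Oasl1 differed by -0.24 in HC11-mutB1 (adjusted p = 0.10), and Oas2 was near background with a mean of 3.86.

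Of the large GTPases Gbp3, Mx1 and Mx2, only Gbp3 was called, and only in HC11-mutB1 against HC11-FL. Gbp3, a guanylate binding protein that attacks the vacuoles of pathogens, read 6.93, 6.91 and 6.91 in HC11-ΔSAP, 6.04, 6.34 and 6.69 in HC11-mutB1 and 7.26, 7.14 and 7.02 in HC11-FL arrays. It fell by 0.78 in HC11-mutB1 (SE 0.15, adjusted p = 0.0067), and the call was lost in 8 of the 9 fits that left out 1 array. Rnf213, a giant ubiquitin ligase with an ATPase core, rose in both mutants. It read 10.02, 9.90 and 9.87 in HC11-ΔSAP, 9.92, 9.89 and 10.06 in HC11-mutB1 and 9.002, 8.834 and 8.976 in HC11-FL arrays. Both mutants lay above HC11-FL in every array and overlapped each other, with changes of 1.02 in HC11-mutB1 (SE 0.070, adjusted p = 3.2e-05) and 0.99 in HC11-ΔSAP (adjusted p = 3.5e-05). A second own probeset of Rnf213 had means of 9.78 in HC11-ΔSAP, 9.72 in HC11-mutB1 and 8.80 in HC11-FL. Mx1 and Mx2, classical interferon-induced antiviral GTPases, were at means of 2.96 and 3.49, below the level of 4, and differed in no comparison past the test.

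Among membrane proteins, Bst2 (tetherin), which holds budding virions at the cell surface, had the second largest fall. It read 9.56, 9.23 and 9.29 in HC11-ΔSAP, 7.84, 7.77 and 7.96 in HC11-mutB1 and 9.28, 9.12 and 9.12 in HC11-FL arrays. All 3 HC11-mutB1 arrays were below the other 6. The change was -1.31 in HC11-mutB1 (SE 0.096, adjusted p = 4.2e-05), 0.19 in HC11-ΔSAP (95% interval -0.03 to 0.41, adjusted p = 0.26) and 1.503 between HC11-ΔSAP and HC11-mutB1 (adjusted p = 2.3e-05). Rtp4, a chaperone of membrane receptors, moved with it, with -0.57 in HC11-mutB1 (adjusted p = 0.0046) and 0.83 between HC11-ΔSAP and HC11-mutB1 (adjusted p = 7.7e-04).

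The interferon-induced transmembrane proteins, which restrict the fusion of virus with endosomes, took another course. Ifitm3 read 12.21, 12.32 and 12.27 in HC11-ΔSAP, 11.65, 11.69 and 11.70 in HC11-mutB1 and 11.72, 11.76 and 11.62 in HC11-FL arrays. HC11-ΔSAP was above all other arrays, with a rise of 0.57 against HC11-FL (SE 0.053, adjusted p = 1.4e-04), and HC11-mutB1 differed from HC11-FL by -0.02 (95% interval -0.14 to 0.10). Ifitm2 read 10.53, 10.56 and 10.45 in HC11-ΔSAP, 10.15, 10.04 and 10.21 in HC11-mutB1 and 10.04, 10.09 and 9.92 in HC11-FL arrays. It rose by 0.49 in HC11-ΔSAP (SE 0.065, adjusted p = 9.4e-04) and differed by 0.12 in HC11-mutB1 (adjusted p = 0.30), and both other own probesets of Ifitm2 had the same order of means. Ifitm1 was at 4.13, 4.37 and 4.20 in HC11-ΔSAP, 3.75, 3.89 and 3.88 in HC11-mutB1 and 4.12, 3.92 and 3.85 in HC11-FL arrays, close to background, and was called in no comparison.

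Genes of nucleotide and RNA metabolism included the only member called in opposite directions in the mutants. Isg20, an exonuclease that degrades single-stranded RNA, read 8.64, 8.59 and 8.62 in HC11-ΔSAP, 9.16, 9.18 and 9.05 in HC11-mutB1 and 8.90, 8.86 and 8.87 in HC11-FL arrays. The strains did not overlap. The change was -0.26 in HC11-ΔSAP (SE 0.048, adjusted p = 0.0057) and 0.26 in HC11-mutB1 (adjusted p = 0.0067), calls lost in 7 and 8 of the 9 fits without 1 array, whereas the direct difference of -0.52 between HC11-ΔSAP and HC11-mutB1 (adjusted p = 1.9e-04) was kept in all 9. Rsad2 (viperin) and Cmpk2, neighbours in the genome that act on nucleotides, were under the level of 4 with means of 3.89 and 3.65. Samd9l, an antiviral factor and growth suppressor, was called in no comparison, and its 95% interval in HC11-mutB1 against HC11-FL ran from -0.15 to 0.52.

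Of 6 genes that act on ubiquitin, Isg15 or ADP-ribose, 1 rose in HC11-mutB1 (background 10.5%) and 2 rose in HC11-ΔSAP against HC11-FL (background 10.8%), and 0 were called lower in either (background 7.21% and 8.09%). At an unadjusted p under 0.05 in the limma fit, Usp18 and Trim25 were lower in HC11-mutB1. Usp18, the protease that removes Isg15 and also restrains the receptor subunit Ifnar2, read 7.10, 6.91 and 6.81 in HC11-ΔSAP, 5.75, 5.66 and 6.16 in HC11-mutB1 and 6.88, 6.36 and 6.47 in HC11-FL arrays. HC11-mutB1 lay below the other strains, and the difference of 1.09 between HC11-ΔSAP and HC11-mutB1 passed (SE 0.17, adjusted p = 0.0034), but was lost without any 1 of 5 arrays, HC11-ΔSAP replicates 1, 2 and 3 and HC11-mutB1 replicates 1 and 2. Against HC11-FL the change in HC11-mutB1 was -0.71 (adjusted p = 0.022). Herc6, the mouse ligase that attaches Isg15, rose by 0.57 in HC11-ΔSAP (adjusted p = 7.6e-04), with 0.32 in HC11-mutB1 (adjusted p = 0.016). Dtx3l, a ubiquitin ligase that pairs with Parp9, rose by 0.45 in HC11-mutB1 (adjusted p = 3.6e-04) and by 0.24 in HC11-ΔSAP (adjusted p = 0.0091, lost whichever array was left out). Parp9 itself was 0.22 above HC11-FL in both mutants (adjusted p = 0.057 in HC11-mutB1 and 0.060 in HC11-ΔSAP). Parp14 and Trim25, a ligase of the RIG-I pathway, were called in no comparison.

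Xaf1, which opposes the inhibitor of apoptosis XIAP, rose with Rnf213. It read 6.64, 6.53 and 6.63 in HC11-ΔSAP, 6.77, 6.90 and 6.92 in HC11-mutB1 and 5.94, 5.78 and 5.68 in HC11-FL arrays. The mutants were above HC11-FL in every array, by 1.06 in HC11-mutB1 (SE 0.077, adjusted p = 4.0e-05) and 0.80 in HC11-ΔSAP (adjusted p = 1.7e-04). Ifi35, an interferon-induced leucine zipper protein, was called in no comparison, with differences from HC11-FL of 0.14 in HC11-mutB1 and 0.17 in HC11-ΔSAP.

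Read across roles, 9 members fell in HC11-mutB1 and were not called in HC11-ΔSAP, 3 fell in both (Ifit2, Ifih1 and Stat2), 3 rose in both (Rnf213, Dtx3l and Xaf1), 4 rose in HC11-ΔSAP and were not called in HC11-mutB1 (Ifitm2, Ifitm3, Ddx58 and Herc6), and Irf1 fell in HC11-ΔSAP and was not called in HC11-mutB1. A call in 1 mutant is no test of a difference between them. In the direct comparison Ifitm2, Ifitm3 and Ddx58 were called higher in HC11-ΔSAP, whereas Herc6 (0.25, adjusted p = 0.054) and Irf1 (-0.12, adjusted p = 0.30) did not pass. Together with Isg20 this leaves 17 members called in neither mutant against HC11-FL. Among those 17, Dhx58, Usp18, Ifit3 and Rsad2 were called higher in the direct comparison of HC11-ΔSAP with HC11-mutB1. Since both comparisons share the HC11-FL arrays, the groups of genes lower or higher in both carry the same HC11-FL values in each. The shares of all genes with these joint patterns were not determined, so the counts describe the members only.

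In each strain 1 array tended to be the highest in these genes. Over all 38 members the median difference from the HC11-FL mean was -0.26, -0.27 and -0.24 in HC11-mutB1 replicates 1, 2 and 3. It was 0.20, 0.10 and 0.18 in HC11-ΔSAP and 0.05, -0.02 and -0.03 in HC11-FL replicates 1, 2 and 3. The 12 members that fell in HC11-mutB1 were picked by these same arrays, so a negative median there was fixed in advance. Taken over these 12, the median difference was -0.93, -0.82 and -0.55 in HC11-mutB1 replicates 1, 2 and 3. HC11-ΔSAP replicates 1, 2 and 3 lay at 0.02, -0.08 and -0.09 and HC11-FL replicates 1, 2 and 3 at 0.07, -0.01 and -0.04. The array highest of its strain was most often HC11-ΔSAP replicate 1 (10 of these 12 members and 22 of all 38), HC11-mutB1 replicate 3 (11 of 12 and 27 of 38) and HC11-FL replicate 1 (8 of 12 and 24 of 38). The shares of all genes highest in these arrays were not determined, so the counts describe the members only. Over all probesets HC11-ΔSAP replicate 1 (4.604) and HC11-FL replicate 1 (4.601) had the highest medians of their strains, and HC11-mutB1 replicate 3 (4.543) the lowest. The members at a mean of 4 or more had a median SD of 0.080 in HC11-ΔSAP, 0.11 in HC11-mutB1 and 0.081 in HC11-FL arrays, and all genes at that level had 0.063 in HC11-ΔSAP, 0.061 in HC11-mutB1 and 0.073 in HC11-FL arrays. The members' SD was thus above that of the genes at large in each strain, and by most in HC11-mutB1. Repeated values within a strain, which lower an SD, occurred in 37.9% of all genes and in 13.2% of the members. Their part in this contrast was not tested.

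The promoter letters were set beside these calls. A window and an own probeset were both available for 29 members, 13 with the core and 16 without. Of the 10 members that fell in HC11-mutB1 and had a window, 6 held the core (Ifit1, Oas3, Gbp3, Bst2, Ifih1 and Stat2), and of the 4 that rose 0 held it. Of the 15 that were not called, 7 held it (Ifit3, Oas1a, Ifitm2, Ifitm3, Rsad2, Ddx58 and Eif2ak2). The median log2 fold change in HC11-mutB1 was -0.78 over the 13 members with the core and -0.15 over the 16 without. In HC11-ΔSAP minus HC11-mutB1 the medians were 0.56 and 0.08, and all 13 members with the core had a positive difference, between 0.19 and 2.30. Of the 16 members without it 6 were below 0, as were 8611 of all 19937 genes. In HC11-ΔSAP minus HC11-FL the medians were 0.05 with the core and 0.19 without it. Of 594 other genes with the core in a window, 6.4% were called lower and 9.93% higher in the comparison of HC11-mutB1 with HC11-FL, against 7.48% and 10.3% of 14990 other genes without it. Between HC11-ΔSAP and HC11-mutB1, 7.74% of these 594 were lower and 7.24% higher, against 7.28% and 6.44% without the core. The median differences there were 0.023 with the core and 0.022 without it. These are counts of letters in a short window, with no test.

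**Figure D4:**
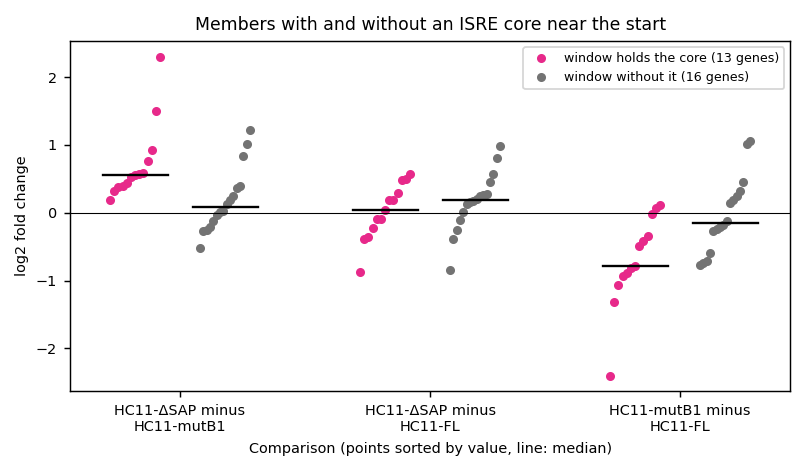
log2 fold change (vertical axis) of the 13 members whose RefSeq promoter window holds the ISRE core and of the 16 whose window does not, in the 3 comparisons (horizontal axis). Points are genes sorted by value within each group and the line is the median, which is -0.78 with the core and -0.15 without it in HC11-mutB1 minus HC11-FL.

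Upstream of the members, 3 of 6 interferon receptor genes fell and 1 rose in HC11-mutB1 (background 7.21% and 10.5%), and 1 rose in HC11-ΔSAP cells (background 10.8%). Ifnar2, the signalling subunit of the type I receptor, read 9.46, 9.58 and 9.65 in HC11-ΔSAP, 7.66, 7.65 and 7.71 in HC11-mutB1 and 9.52, 9.64 and 9.52 in HC11-FL arrays. It fell by 1.89 in HC11-mutB1 (SE 0.061, adjusted p = 6.2e-07) and differed by 0.00 in HC11-ΔSAP cells (adjusted p = 0.99). Ifnar1, the other subunit, read 9.30, 9.37 and 9.34 in HC11-ΔSAP, 8.53, 8.56 and 8.55 in HC11-mutB1 and 8.906, 8.999 and 8.924 in HC11-FL arrays. It fell by 0.40 in HC11-mutB1 (SE 0.043, adjusted p = 3.7e-04) and rose by 0.39 in HC11-ΔSAP (adjusted p = 3.6e-04). Il10rb, shared by the receptors for interferon lambda and interleukin 10, was 9.21, 9.27 and 9.36 in HC11-ΔSAP, 7.64, 7.78 and 7.69 in HC11-mutB1 and 9.10, 9.18 and 9.11 in HC11-FL arrays, a fall of 1.43 in HC11-mutB1 (adjusted p = 1.7e-06). For these 3 genes every HC11-mutB1 array was below the 6 others. Ifngr2 of the interferon gamma receptor differed by -0.29 in HC11-mutB1 (adjusted p = 0.018), Ifngr1 by 0.09 (adjusted p = 0.35), and Ifnlr1 of the lambda receptor rose by 0.49 (adjusted p = 0.0015). In the RefSeq table Ifnar2, Il10rb, Ifnar1 and Ifngr2 are 4 consecutive protein-coding genes on mouse chromosome 16, and their changes in HC11-mutB1 in that order were -1.89, -1.43, -0.40 and -0.29.

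**Figure D5:**
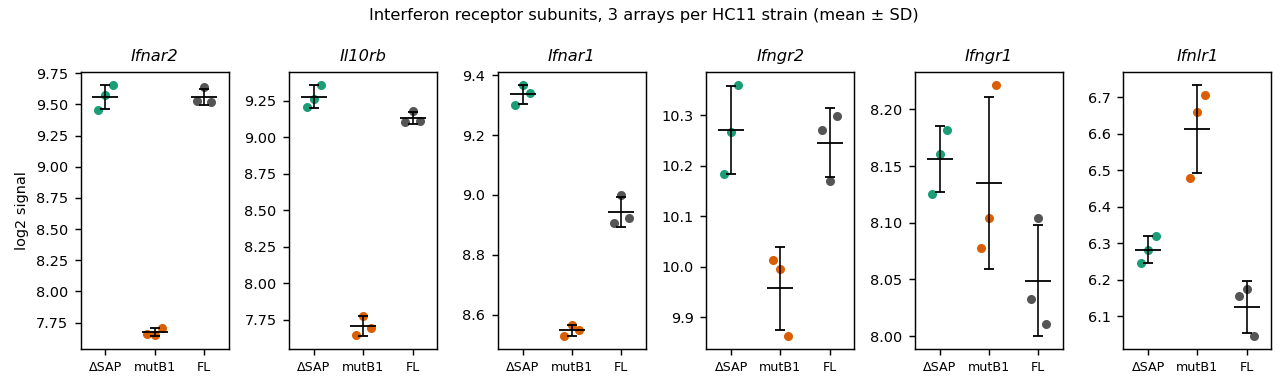
log2 signal (vertical axis, a separate scale for each gene) of 6 interferon receptor genes in the 3 arrays of HC11-ΔSAP, HC11-mutB1 and HC11-FL cells (points), with the mean and SD. Ifnar2, Il10rb and Ifnar1 are lowest in all HC11-mutB1 arrays, whereas Ifnlr1 is highest there.

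Genes for the interferons themselves were called in no comparison, with 0 of 14 ligand genes with an own probeset past limma's test. Of these 14, only 4 had a mean of 4 or more, and the median level was 3.38. The lack of calls therefore does not show that their expression was unchanged. At an unadjusted p under 0.05 there were 0 in HC11-mutB1 against HC11-FL, 1, lower, in HC11-ΔSAP against HC11-FL and 0 between the mutants. Ifnb1, the gene for interferon beta, read 3.07, 2.90 and 3.08 in HC11-ΔSAP, 3.08, 3.08 and 2.95 in HC11-mutB1 and 3.21, 3.14 and 3.08 in HC11-FL arrays, at the background of the array. Of 12 signalling genes and inhibitors 1 fell and 0 rose in HC11-mutB1, and 0 fell and 2 rose in HC11-ΔSAP. Of 19 sensors, adaptors and kinases that lead to interferon production, 2 fell and 2 rose in HC11-mutB1, and 0 fell and 5 rose in HC11-ΔSAP. The background was 7.21% lower and 10.5% higher for HC11-mutB1 and 8.09% lower and 10.8% higher for HC11-ΔSAP, and the HC11-mutB1 counts of both lists are near it. Ikbke, a kinase of Irf3, fell by 0.69 in HC11-mutB1 (adjusted p = 1.6e-05). Tlr3, the endosomal sensor of double-stranded RNA, rose by 0.87 in HC11-ΔSAP (adjusted p = 2.6e-05) and by 0.47 in HC11-mutB1 (adjusted p = 7.7e-04). Mavs, the mitochondrial adaptor of RIG-I and MDA5, rose by 0.64 in HC11-ΔSAP (adjusted p = 7.2e-05) and by 0.49 in HC11-mutB1 (adjusted p = 3.0e-04). Irf3, the factor that starts interferon transcription, read 7.33, 7.24 and 7.18 in HC11-ΔSAP, 7.16, 7.07 and 7.10 in HC11-mutB1 and 7.22, 7.18 and 7.10 in HC11-FL arrays. It differed from HC11-FL by 0.09 in HC11-ΔSAP (adjusted p = 0.39) and by -0.06 in HC11-mutB1 (adjusted p = 0.58). Ikbke, Tlr3 and Mavs were chosen for mention after their values were seen.

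Of a list of 69 further interferon-induced genes, 11 fell and 13 rose in HC11-mutB1 (background 7.21% lower and 10.5% higher), with a median of -0.05. In HC11-ΔSAP 6 fell and 23 rose (background 8.09% and 10.8%), with a median of 0.11. Between HC11-ΔSAP and HC11-mutB1, 17 were higher and 3 lower (background 6.63% and 7.11%). Of the 69 genes, 56 had a mean of 4 or more, so the all-gene background is low for them. Over 13157 genes fitted at a mean of at least 4, 12.6% fell and 18.1% rose in HC11-mutB1. In HC11-ΔSAP these shares were 13.9% and 17.9%. In the direct comparison 11.7% were higher and 12.4% lower. For HC11-mutB1 the list therefore shows no clear excess in either direction. Trim30a, a negative regulator of Toll-like receptor signalling, read 5.20 in each HC11-ΔSAP array, 4.30, 4.07 and 4.16 in HC11-mutB1 and 7.05, 6.90 and 6.77 in HC11-FL arrays. Lgals9, the glycan-binding galectin-9, read 7.15, 7.07 and 7.15 in HC11-ΔSAP, 6.19, 6.21 and 6.36 in HC11-mutB1 and 8.91, 8.82 and 8.77 in HC11-FL arrays. Both fell in both mutants. The log2 change of Trim30a was -1.70 in HC11-ΔSAP (adjusted p = 4.8e-06) and -2.73 in HC11-mutB1 (adjusted p = 4.4e-07), and that of Lgals9 was -1.71 in HC11-ΔSAP (adjusted p = 1.1e-06) and -2.58 in HC11-mutB1 (adjusted p = 1.6e-07). Ccl5 (RANTES), a chemokine, read 9.22, 9.50 and 9.44 in HC11-ΔSAP, 7.41, 7.40 and 7.50 in HC11-mutB1 and 8.997, 8.949 and 8.959 in HC11-FL arrays. It fell by 1.54 in HC11-mutB1 (adjusted p = 5.0e-06) and rose by 0.42 in HC11-ΔSAP (adjusted p = 0.0050), a rise not called in 7 of the 9 fits without 1 array. Lgals3bp, a secreted glycoprotein, read 9.62, 9.23 and 9.32 in HC11-ΔSAP, 7.56, 7.75 and 7.92 in HC11-mutB1 and 8.56 in each HC11-FL array. The strains did not overlap, and it changed by 0.83 in HC11-ΔSAP (adjusted p = 0.0014) and -0.82 in HC11-mutB1 (adjusted p = 0.0016). Casp1, the protease of the inflammasome, read 7.79, 8.02 and 8.03 in HC11-ΔSAP, 8.45, 8.58 and 8.60 in HC11-mutB1 and 6.72, 7.26 and 6.96 in HC11-FL arrays. It rose by 1.57 in HC11-mutB1 (adjusted p = 1.0e-04) and by 0.97 in HC11-ΔSAP (adjusted p = 0.0012). Parp11, which attaches single ADP-ribose units, read 6.04, 5.78 and 6.13 in HC11-ΔSAP, 5.598, 5.598 and 5.714 in HC11-mutB1 and 4.397, 4.717 and 4.846 in HC11-FL arrays. It rose by 1.33 in HC11-ΔSAP (adjusted p = 1.8e-04) and by 0.98 in HC11-mutB1 (adjusted p = 9.9e-04). Gbp4, a guanylate binding protein, rose by 1.45 in HC11-ΔSAP (SE 0.25, adjusted p = 0.0038), where 1 array at 5.74 stood apart from the others at 6.62 and 6.71, and differed by -0.04 in HC11-mutB1. Its signals were 5.08, 4.71 and 4.81 in HC11-mutB1 and 5.03, 4.69 and 4.99 in HC11-FL arrays, and the call was lost in 5 of the 9 fits without 1 array.

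Many of these genes are also high in immune cells, so markers of such cells were read beside them. The summed linear signal of 8 lymphocyte and natural killer cell markers was 87.2 to 94.6 in HC11-ΔSAP, 86.4 to 91.2 in HC11-mutB1 and 88.6 to 97.8 in HC11-FL arrays. That of 10 macrophage and dendritic cell markers was 409.2 to 414.9 in HC11-ΔSAP, 291.1 to 296.4 in HC11-mutB1 and 337.0 to 345.7 in HC11-FL arrays, and 1 of the 10, Cd68, was called against HC11-FL, higher in HC11-ΔSAP and lower in HC11-mutB1. Cd68, a lysosomal protein also found outside macrophages, made up most of that sum, with mean linear signals of 283.0 in HC11-ΔSAP, 163.5 in HC11-mutB1 and 207.2 in HC11-FL. Of the 10, 3 were at a mean of 4 or more in HC11-ΔSAP, 3 in HC11-mutB1 and 4 in HC11-FL. The pan-leukocyte, macrophage and dendritic cell markers Ptprc, Adgre1, Itgam and Itgax were below the level of 4 in every strain. The summed signal of the 10 epithelial markers was 6785 to 6871 in HC11-ΔSAP, 8999 to 9219 in HC11-mutB1 and 7420 to 7645 in HC11-FL arrays. Against HC11-FL, 2 of the 10 were called lower and 4 higher in HC11-mutB1 (background 7.21% and 10.5%). In HC11-ΔSAP 4 were lower, 2 of them past the 3 filters, and 3 higher (background 8.09% and 10.8%). Between HC11-ΔSAP and HC11-mutB1, 3 were lower and 2 higher (background 7.11% and 6.63%), with log2 differences from -3.05 to 0.39. Of 8 fibroblast and adipocyte markers, 7 were at a mean of 4 or more in every strain, and their summed signal was 497.2 to 502.7 in HC11-ΔSAP, 426.2 to 460.1 in HC11-mutB1 and 492.5 to 507.6 in HC11-FL arrays. In HC11-mutB1 2 were called lower and 1 higher, and in HC11-ΔSAP 2 lower and 1 higher, the last being Dcn, the gene for decorin, at 1.81 on the log2 scale (adjusted p = 2.0e-07, past the 3 filters). Of 5 endothelial markers, 1 was at that level, and their sum was 71.5 to 72.3 in HC11-ΔSAP, 70.5 to 72.3 in HC11-mutB1 and 72.6 to 77.2 in HC11-FL arrays. The part of these markers in the differences of the interferon-stimulated genes was not tested.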

How the data were processed

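Total RNA of 3 HC11 strains, 3 arrays each, had been hybridized to Affymetrix Mouse Gene 1.0 ST arrays. The deposited table holds log2 signals, which the authors computed by robust multi-array averaging with the affy package. R 2.10.0 is named in the submitters' processing notes. All 34760 probesets of the 9 arrays entered 1 fit of strain means (limma 3.58.1, R 4.3.3), and p-values were adjusted by the Benjamini-Hochberg method over all probesets. The thresholds (adjusted p of at most 0.01, and together with it a 2-fold minimum and a mean of 4 or more) follow the study's methods. No further normalization was done. Probesets were named from the platform annotation, and a gene's probeset was the one of highest mean that names it alone. The members, the gene lists and the motifs were chosen with earlier results of these data known. Array values are given for members past the 3 filters, for the 5 called members of largest change in each comparison, for the transcription factors and Ifitm genes, for Ifnar1, Ifnar2, Irf3 and Ifnb1 and for the 4 pathway genes of largest called change in each comparison with a mean of at least 4. Other array values were added after they were seen. The step was tested on simulated arrays with the probeset means and residual spread of the data, independent normal noise and no other strain differences. Changes of known size were added to 50 probesets per size, all above a minimum level. Of these, 10 were recovered at 1.25-fold, 35 at 1.5-fold, 48 at 2.5-fold and 48 at 4-fold for HC11-mutB1 against HC11-FL over 34760 probesets. The deposited arrays hold repeated values and many more differences, so these counts do not give the recovery in them. The number of arrays, not counting depth, limits the precision. Alternatives were other thresholds, level filters, centring, a robust prior, a fit of 2 strains, a replicate block, the mean over a gene's probesets, leaving out probesets with repeated values and leaving out each array.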

Additional observations from a re-analysis of the deposited data

Results flagged for a closer look

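A small set of genes was called in opposite directions in the mutants and differed between them in the direct limma test. Isg20 was 0.52 below its HC11-mutB1 log2 level in HC11-ΔSAP cells (-0.516, adjusted p = 1.9e-04). Of the wider pathway, Ifnar1 in HC11-ΔSAP was above HC11-mutB1 by 0.788 (adjusted p = 1.0e-05), Lgals3bp by 1.646 (adjusted p = 4.2e-05) and Ccl5 by 1.955 (adjusted p = 1.9e-06). Prdm1, a repressor of transcription in the list of interferon regulatory factors and their relatives, was lower by 0.908 (-0.908, adjusted p = 2.3e-04), at 4.01, 4.13 and 4.12 in HC11-ΔSAP, 4.84, 4.97 and 5.17 in HC11-mutB1 and 4.63, 4.56 and 4.49 in HC11-FL arrays. Calls against HC11-FL of Isg20, Prdm1 and, in HC11-ΔSAP, Ccl5 were lost in 7 or 8 of the 9 fits that left out 1 array, whereas those of Ifnar1 and Lgals3bp were kept in all 9.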

How the results depend on the processing

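No single gene called in the main fit or in an alternative changed its sign between them, and changes of sign without a call were not counted. Of 285 values of counts and medians, 245 stayed within 1.5 times or 1 SD. Part of these could not move. Other thresholds for p or fold leave the medians as they are, and so does leaving out an array of the strain not compared. For HC11-mutB1 against HC11-FL, the members called lower were 7 when only these strains were fitted (5.16% of all genes). They were 6 to 13 when single arrays were left out (4.98% to 6.49% of all genes). Those called higher were 2 with a fold of at least 1.5 (4.21% of all genes). Those higher past the 3 filters were 1 with the mean over a gene's probesets and 1 to 2 without single arrays. The members' median was -0.236 with arrays centred on their medians, -0.383 and -0.327 over probesets with a mean of at least 4 and 5, -0.226 with the mean over probesets, -0.237 without probesets of repeated values and -0.312 to -0.200 without single arrays. For HC11-ΔSAP against HC11-FL, the lower members were 2 with a fold of at least 1.5 (3.17% of all genes) and 3 to 5 without single arrays (5.67% to 7.14%). The higher were 2 with that fold (4.53% of all genes). Higher members past the 3 filters were 1 with centred arrays and 0 to 1 without single arrays. For HC11-ΔSAP against HC11-mutB1, lower members were 3 at an adjusted p of 0.05, 0 with a fold of at least 1.5 and 3 over probesets with a mean of at least 5. Without single arrays 8 to 14 were higher (4.42% to 6.09% of all genes), 3 to 5 were so past the 3 filters, and the median was 0.343 to 0.425. Array numbers are shared between strains, and same-numbered arrays deviated together in 3 of 9 pairs (r over 0.1, range -0.107 to 0.257). These 3 were the pairs of replicate 1. Their r was 0.119 for HC11-mutB1 with HC11-FL, 0.257 for HC11-ΔSAP with HC11-FL and 0.108 for HC11-ΔSAP with HC11-mutB1. Of differently numbered pairs, HC11-FL replicate 2 reached 0.23 with HC11-mutB1 replicate 3 and 0.213 with HC11-ΔSAP replicate 3. With replicate number as a block, 8 members were lower and 3 higher in HC11-mutB1 (5.76% and 8.86% of all genes). In that fit 3 were lower in HC11-ΔSAP against HC11-FL (6.66% of all genes). Of the 15 that were higher in HC11-ΔSAP cells than in HC11-mutB1, 11 kept their call (5.06% of all genes were called higher). Of 3285 values of single genes 202 lost their call and 49 gained one. Apart from fewer arrays, the cause of these shifts was not tested.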
